A study of Homo sapiens and Mus musculus with 22 samples.

Results

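The comparison set U2OS cells labelled ATG5 KD (knockdown) against U2OS cells labelled Vector, both under 10 µM BIX-01294 (BIX) for 12 h. Its members were the genes of the deposited table with an FPKM (fragments counted for a gene, scaled to transcript length and sequencing depth) of at least 1 in 1 of the 2 BIX values. This held for 12352 of 23760 gene symbols, and 97 genes of short non-coding RNAs were then left out, which gave 12255 genes. U2OS is a human osteosarcoma line, and the study treated cells with an inhibitor of H3K9 methylation or knocked out SETDB1, an H3K9 methyltransferase gene. The same 2 cell lines were also measured in mock. That is the treatment given for those samples, though a general note of the labels has every cell treated, and no vehicle is named. The 4 values made up 4 of the 22 samples of the series. Each stands for 2 replicates per the labels, and the separate replicates were not analysed here, so every difference below is between 2 values and has no test. The sources used here do not say how ATG5 was knocked down, in how many clones, or which vector was used.

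ATG5 is joined to ATG12, and this conjugate is needed to attach LC3 family proteins to the growing autophagosome membrane. Cells that lack it cannot complete ordinary macroautophagy, the process that carries cytoplasm, organelles and aggregates to the lysosome. BIX is an inhibitor of EHMT1 and EHMT2, methyltransferases of lysine 9 of histone H3, and is also known as an inducer of autophagy.

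In this text a difference is the log2(FPKM + 1) value of labelled KD minus that of vector cells, a scale that understates changes of genes at low levels. A gene is counted as higher or lower when this difference reaches 1 in size, called 2-fold here. A ratio is the plain quotient of the FPKM values and is given only where both are at least 1. Where 2 values are given as one against the other, labelled KD stands first.

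With BIX, 171 of the 12255 genes (1.40%) were at least 2-fold higher in labelled KD and 57 (0.465%) were at least 2-fold lower. Either direction held for 228 genes (1.86%). The median difference over all genes was 0.03, with quartiles at -0.17 and 0.23, and 6595 genes (53.8%) lay above 0 against 5660 (46.2%) below. At a size of 1.5-fold, 613 genes (5.00%) were higher and 343 (2.80%) lower. At a size of 4-fold, 9 genes were higher and 5 lower. The only U2OS groups with separate libraries were 3 mock groups of another table (WT and 2 SETDB1 knockouts, 2 libraries each), where 32 of 12535 (0.255%), 24 of 12556 (0.191%) and 20 of 12559 (0.159%) genes differed 2-fold between the libraries of 1 group. Those are single libraries and not means of 2, so they give a scale and not an error for the BIX pair.

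Higher genes made up similar shares of each range of levels, and larger shares of long non-coding RNAs and pseudogenes than of protein-coding genes. At 1 to 5, 5 to 20, 20 to 100 and at least 100 FPKM, 1.56%, 1.46%, 1.15% and 1.48% of genes were higher and 0.531%, 0.584%, 0.328% and 0.212% lower. In either direction the shares were 2.09%, 2.04%, 1.48% and 1.69%. The median difference, in contrast, differed between the ranges. It was -0.06 over 3204 genes at 1 to 5 FPKM, -0.03 over 4450 genes at 5 to 20, 0.10 over 3657 genes at 20 to 100 and 0.26 over 944 genes at 100 FPKM or more. Genes at 100 FPKM or more had a median of 0.14 in the mock pair and of -0.11, 0.03 and 0.14 in the replicate pairs. Protein-coding genes made up 10333 of the genes with 1 symbol, of which 120 (1.16%) were higher and 48 lower. Long non-coding RNAs numbered 363, with 19 (5.23%) higher and 2 lower, and pseudogenes 175, with 10 (5.71%) higher and 2 lower.

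In bulk RNA, fewer cells that express a gene and less RNA per cell cannot be told apart. The cells were checked against markers. Of 13 osteoblast and bone markers 8 reached 1 FPKM, among them SPARC (406 against 429.9 FPKM with BIX), COL1A1 (156 against 262 FPKM with BIX) and RUNX2 (11.6 against 16.2 FPKM with BIX), while SP7, DLX5, IBSP and COL1A2 stayed under 0.1 FPKM in both BIX values. Of 10 blood cell markers 1 reached 1 FPKM, CD68, and only in an entry that joins it with EIF4A1 and other genes (571 against 469 FPKM with BIX), so its level cannot be assigned to CD68. CD3E and HBB were at or near 0. Of 8 endothelial markers 2 reached 1 FPKM with BIX, EGFL7 (72.7 against 77.1 FPKM with BIX) and ROBO4 (1.01 against 1.09 FPKM with BIX), while PECAM1, CDH5 and KDR were under 0.1 FPKM. The markers of each list summed to between 403 and 572 FPKM for blood and between 74.7 and 101.1 for endothelium over the 4 values, nearly all of it from the CD68 entry and EGFL7. The keratins KRT8 (633 against 471 FPKM with BIX) and KRT18 (537 against 305 FPKM with BIX) were high in both cell lines. Other epithelial markers that reached 1 FPKM were CLDN4 (4.77 against 5.34 FPKM with BIX), EPCAM (2.90 against 2.79 FPKM with BIX) and an entry joining KRT14, KRT16 and KRT19 (8.30 against 12.0 FPKM with BIX). The epithelial genes CDH1, KRT5, GRHL2 and ESRP1 were under 1 FPKM.

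**Figure D1:**
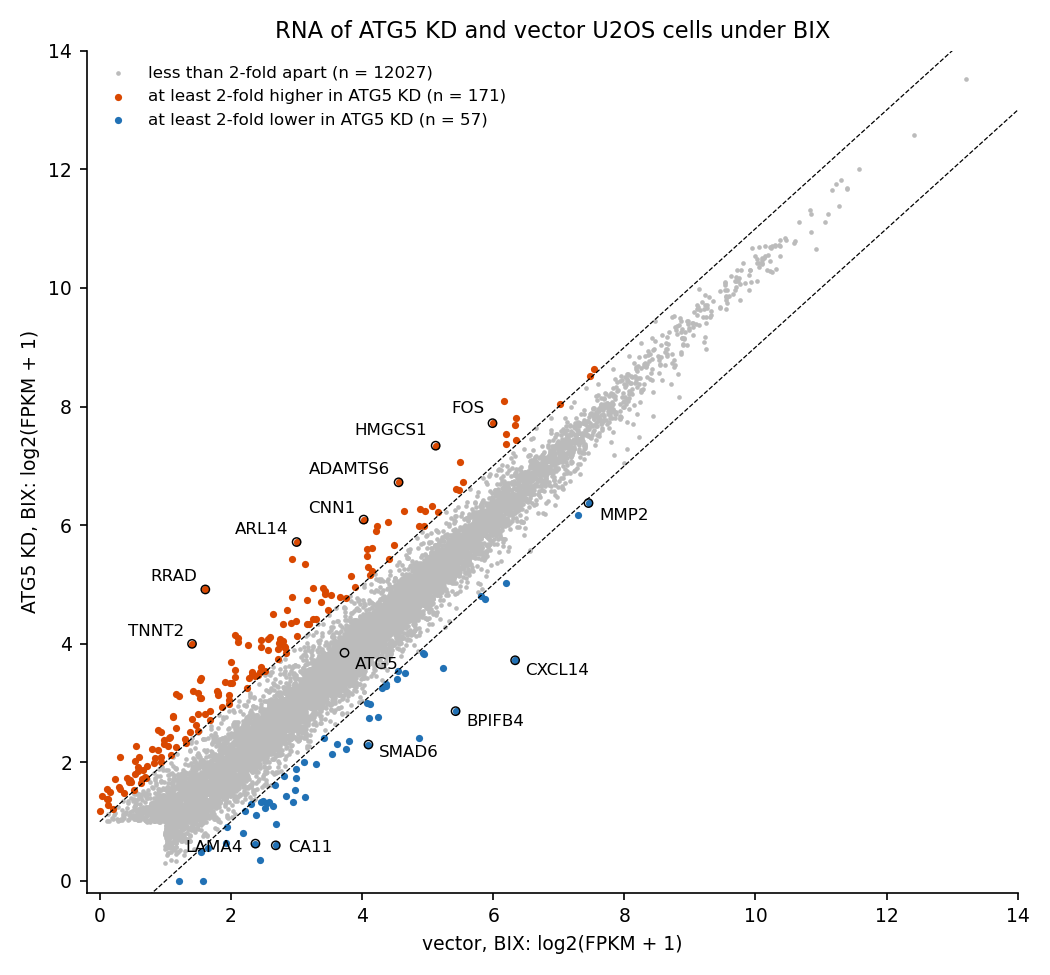
Each point is 1 of 12255 genes, with the vector value on the x axis and the ATG5 KD value on the y axis, both as log2(FPKM + 1) with BIX. Dashed lines mark 2-fold differences. The 171 genes above the upper line and the 57 below the lower one are coloured, and ATG5 itself lies near the diagonal.

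The knocked-down gene did not show lower RNA under BIX. ATG5 was at 13.4 FPKM in labelled KD and 12.3 in vector cells with BIX, and 10.1 and 11.3 in mock. The difference was 0.12 with BIX and -0.16 in mock, so the RNA does not check the label, and cells are called labelled KD for that reason. ATG5 protein was not among the data analysed here.

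No gene of the autophagy machinery was 2-fold apart. Of the 33 core genes listed, 29 reached 1 FPKM, with 0 higher and 0 lower, 20 above 0 and a median of 0.10, against 0.03 over all genes. Among the genes of the initiating kinase complex, ATG101 had the highest difference of the list, at 88.2 against 62.3 FPKM with BIX and 28.7 against 25.4 in mock (0.50). ULK1, the kinase of that complex, was at 15.8 against 15.4 FPKM with BIX and 13.05 against 15.7 in mock, and RB1CC1, its scaffold, at 24.1 against 23.3 FPKM with BIX and 13.1 against 14.3 in mock. Of these 3, only ATG101 differed by more than 0.1 between the cell lines under BIX. In the conjugation system ATG12, the partner of ATG5, was at 40.5 against 30.4 FPKM with BIX and 11.2 against 9.76 in mock. MAP1LC3B, which encodes an LC3 protein, was at 265 against 213 FPKM with BIX and 54.01 against 49.8 in mock, and GABARAPL1, from the same protein family, at 106 against 105 FPKM with BIX and 42.8 against 53.7 in mock. ATG12 and MAP1LC3B were thus at their highest in labelled KD with BIX, with differences of 0.40 and 0.31. ATG2B, a lipid transfer protein of the growing membrane, had the lowest difference, -0.48, at 2.28 against 3.57 FPKM with BIX and 1.53 against 1.80 in mock. UVRAG, a subunit of a lipid kinase complex, followed at -0.37.

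The receptors that bring cargo to autophagosomes were also close. Of 12 listed, 11 reached 1 FPKM, with 0 higher, 0 lower and a median of 0.11. SQSTM1, the receptor p62, which is itself degraded by autophagy, was at 184 against 171 FPKM with BIX and 66.3 against 64.2 in mock. TAX1BP1 was lowest, with a difference of -0.34. Of 35 lysosome and V-ATPase entries 33 were used, with 1 higher, 0 lower and a median of -0.11. The 1 higher entry joins ATP6V1F with FLNC, which encodes the actin crosslinker filamin C, so its level (398 against 186 FPKM with BIX and 132 against 109 in mock) cannot be assigned to the V-ATPase subunit. The cathepsins CTSD (84.1 against 113 FPKM with BIX and 80.7 against 120.1 in mock) and CTSB (169 against 221 FPKM with BIX and 164 against 240.4 in mock) were lower in labelled KD in both treatments, by less than 1.5-fold with BIX.

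Genes of cholesterol synthesis were higher in labelled KD almost throughout the pathway. Of 25 listed genes 24 reached 1 FPKM, and these 24 all had differences above 0, with 3 at least 2-fold higher, 16 at least 1.5-fold higher and a median of 0.83. Sterol-regulated genes are switched on together by SREBF2, a transcription factor that is held inactive in the endoplasmic reticulum by INSIG1 while sterol is plentiful. The mock pair gave the same direction for 23 of the 24, with 9 at least 2-fold higher and a median of 0.92. Between replicate libraries of the other U2OS groups the list had medians of -0.24, -0.38 and -0.09.

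Along the pathway, HMGCS1, which makes HMG-CoA, was at 161 FPKM in labelled KD and 33.8 in vector cells with BIX, and 41.6 and 13.97 in mock. The labelled KD value with BIX was 4.76 times the vector value, the largest ratio of the list, and the difference was 2.22 with BIX and 1.51 in mock. MVD, of the mevalonate steps, was at 21.3 against 10.3 FPKM with BIX and 30.4 against 14.96 in mock, and FDPS, which makes farnesyl diphosphate, at 110.1 against 56.4 FPKM with BIX and 121 against 69.6 in mock. HMGCS1 was the member for which labelled KD with BIX stood far above the other 3 values. MVD and FDPS were no higher in labelled KD with BIX than in labelled KD in mock. FDFT1, the first enzyme committed to sterols, was at 95.3 FPKM in labelled KD and 43.5 in vector cells with BIX, and 98.4 and 39.8 in mock, with a difference of 1.12. SQLE, the epoxidase that follows, was at 32.6 against 17.9 FPKM with BIX and 55.6 against 21.2 in mock, and DHCR7, a late reductase, at 31.1 against 15.3 FPKM with BIX and 37.8 against 18.5 in mock. Both labelled KD values of these 3 genes lay above both vector values. INSIG1 was at 10.1 against 4.01 FPKM with BIX and 8.84 against 3.38 in mock, with a difference of 1.15. SREBF2 itself was at 55.1 against 37.5 FPKM with BIX and 48.7 against 30.5 in mock. INSIG1 and SREBF2 kept the cell lines apart in both treatments. The smallest differences were those of LSS (0.23), of EBP, read together with PORCN (0.27), and of TM7SF2, read together with VPS51 (0.07).

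**Figure D2:**
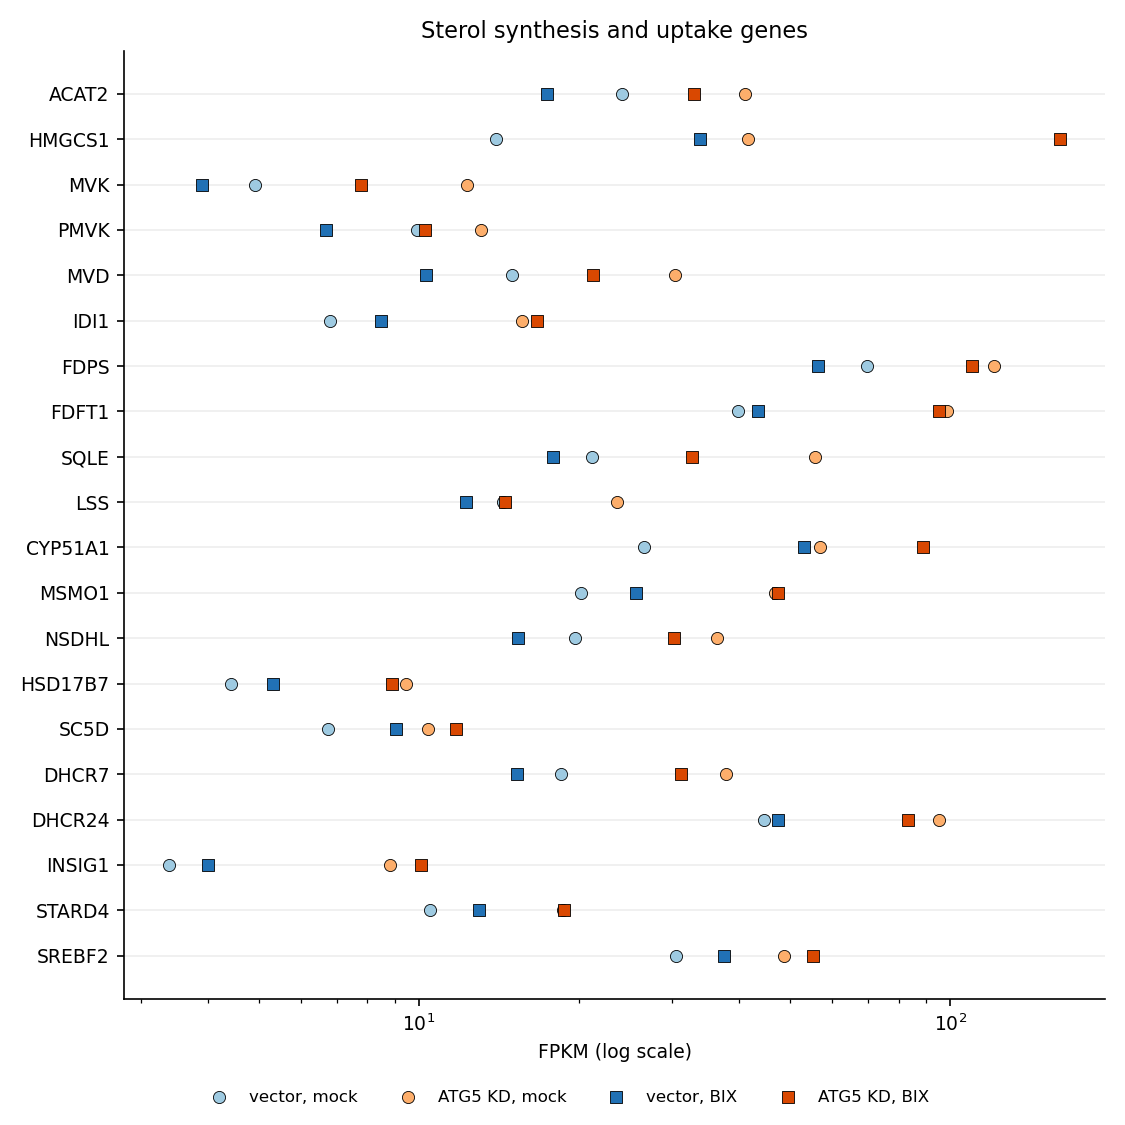
FPKM on a log axis for 20 genes of sterol synthesis and uptake, from the first step at the top to regulators at the bottom, with 1 point for each of the 4 values. With BIX the labelled KD square lies right of the vector square in every gene shown, and HMGCS1 reaches 161 FPKM.

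The promoters of 18 of the 25 sterol genes were matched by symbol in a RefSeq table of GRCh38.p14, a build that differs from the one named for the FPKM values. In the 250 bases before the start, searched on both strands, CCAAT was found in 14 of the 18 and in 33.03% of all 27305 promoters. The 4 without it were CYP51A1, DHCR7, IDI1 and PMVK, whose differences with BIX were also above 0. The sterol regulatory element, searched as TCACNCCAC, was found in 1 of the 18 (SREBF2) and in 0.868% of all, and TGACGTCA and TGANTCA in 0 of the 18. The following stretches are shown because they hold the CCAAT matches of 4 sterol genes named above. Capitals mark CCAAT, or ATTGG where it lies on the other strand. HMGCS1 is at chr5:43313483-43313592 (minus strand, bases 180 to 71 before the start), INSIG1 at chr7:155297683-155297737 (plus strand, bases 195 to 141 before the start), MVD at chr16:88663147-88663275 (minus strand, bases 184 to 56 before the start) and FDPS at chr1:155308665-155308844 (plus strand, bases 201 to 22 before the start).
HMGCS1: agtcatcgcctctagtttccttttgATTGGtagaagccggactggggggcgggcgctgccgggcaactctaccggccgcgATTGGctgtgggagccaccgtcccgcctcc
INSIG1: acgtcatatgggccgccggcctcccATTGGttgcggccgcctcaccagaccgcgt
MVD: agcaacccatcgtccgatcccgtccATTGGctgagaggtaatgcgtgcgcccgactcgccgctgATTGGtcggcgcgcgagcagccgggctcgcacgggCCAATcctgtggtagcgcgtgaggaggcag
FDPS: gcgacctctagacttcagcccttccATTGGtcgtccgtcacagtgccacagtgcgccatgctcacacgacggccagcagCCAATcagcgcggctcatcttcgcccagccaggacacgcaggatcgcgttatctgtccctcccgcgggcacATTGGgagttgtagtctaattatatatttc

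CCAAT was matched 2 times in the HMGCS1 stretch, 1 time in that of INSIG1, and 3 times each in those of MVD and FDPS. These are matches of letters, and no binding was measured.

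Fatty acid synthesis and sterol efflux did not follow the sterol genes to the same size. Of 18 fatty acid genes 16 were used, with 0 higher, 0 lower and a median of 0.22. SCD, the stearoyl-CoA desaturase, was at 59.4 against 33.9 FPKM with BIX and 80.6 against 31.7 in mock, and FADS2, another desaturase, at 58.2 against 34.6 FPKM with BIX and 91.98 against 51.00 in mock. FASN, the synthase, was at 45.1 against 41.9 FPKM with BIX and 54.5 against 36.5 in mock, and SREBF1 at 7.97 against 7.999 FPKM with BIX and 19.3 against 16.1 in mock. The desaturases were at least 1.5-fold higher in labelled KD with BIX, whereas FASN differed by 0.10 and SREBF1 was nearly equal in the BIX pair. Among 11 of 12 efflux and LXR target genes used, the median was -0.07 and 1 was lower, ABCG1, a sterol exporter, at 0.884 against 2.85 FPKM with BIX and 1.77 against 3.97 in mock. NPC1, which exports cholesterol from lysosomes, was at 19.03 against 21.2 FPKM with BIX and 5.85 against 6.06 in mock, with a difference of -0.15.

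Several immediate early genes, the transcription factors and signalling genes that are switched on within minutes of a stimulus, were higher in labelled KD with BIX and close to vector in mock. Of 25 listed, 23 were used, with 5 higher, 0 lower and a median of 0.23. The 23 take in a locus that joins symbols, counted for a gene whose own entry was not used. Without joined loci the median was 0.29. In mock 0 of 18 used were higher or lower, and the median was -0.05. FOS, of the AP-1 factor, was at 209.8 FPKM in labelled KD and 62.5 in vector cells with BIX, and 4.06 and 3.96 in mock. Its 2 mock values were nearly equal, and the BIX values differed 3.35-fold. FOSB, a relative of FOS, was at 25.1 against 9.42 FPKM with BIX and 0.416 against 0.320 in mock. EGR4, a zinc finger factor, was at 9.69 against 1.92 FPKM with BIX and 0.0328 against 0.0204 in mock, and ARC, a synaptic plasticity gene that also responds to serum, at 224 against 80.1 FPKM with BIX and 11.4 against 9.82 in mock. The 4 genes had differences of 1.73, 1.33, 1.87 and 1.47, and all were far lower in both mock values than in either BIX value. The remaining higher gene was CTGF, a matricellular protein gene, at 172 against 80.4 FPKM with BIX and 168 against 138 in mock. There the vector value with BIX was the lowest of the 4, and labelled KD was alike in both treatments.

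The remaining members of the list were closer. EGR1 was at 739.9 against 432 FPKM with BIX and 36.2 against 40.6 in mock (0.77), and ATF3, a stress-induced repressor, at 115 against 60.8 FPKM with BIX and 6.84 against 3.63 in mock (0.91). FOSL1 was at 353 against 263 FPKM with BIX and 40.4 against 42.96 in mock, JUN at 218 against 206 FPKM with BIX and 55.4 against 61.3 in mock and JUNB at 167 against 161 FPKM with BIX and 20.8 against 22.7 in mock. FOSL2 (-0.43) and JUND (-0.35) were lower in labelled KD with BIX, so the AP-1 family did not move as one. IER3 was listed at 0 in all 4 values. The dual-specificity phosphatases and other feedback genes of the MAPK pathway, 13 of 16 used, had 0 higher, 0 lower and a median of 0.16. DUSP10 had their highest difference, at 13.5 against 8.31 FPKM with BIX and 2.49 against 2.48 in mock.

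Of the 25 immediate early genes, 17 had a promoter in the RefSeq table. The cAMP response element, TGACGTCA, was found in 1 of the 17 (JUND) and in 1.75% of all promoters, the AP-1 site TGANTCA in 0 and in 6.57%, and CCAAT in 7 of the 17. The shorter string TGACGT, which every full element also holds, was searched after the values were seen. It was found in 7 of the 17 and in 7.42% of all promoters. The 7 were EGR1, EGR4, FOS, FOSB, FOSL2, JUND and NR4A3. Among them FOSL2 (-0.43) and JUND (-0.35) were lower in labelled KD with BIX, so the string was not confined to higher genes. The 3 stretches below are shown because they hold this string before the starts of the genes of the list named first, with TGACGT, or ACGTCA on the other strand, in capitals. FOS is at chr14:75278739-75278794 (plus strand, bases 89 to 34 before the start), FOSB at chr19:45467911-45467966 (plus strand, bases 85 to 30 before the start) and EGR4 at chr2:73293628-73293751 (minus strand, bases 203 to 80 before the start).
FOS: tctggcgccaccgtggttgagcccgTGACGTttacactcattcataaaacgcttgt
FOSB: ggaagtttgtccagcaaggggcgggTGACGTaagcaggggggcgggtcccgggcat
EGR4: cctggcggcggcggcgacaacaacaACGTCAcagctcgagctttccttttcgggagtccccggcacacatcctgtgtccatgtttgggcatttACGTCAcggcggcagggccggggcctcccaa

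Inflammatory genes under NF-kappaB control were mixed. Of 23 listed, 18 were used, with 1 higher, 1 lower, 7 at least 1.5-fold higher, 2 at least 1.5-fold lower and a median of 0.50. In mock the median was 0.06, and between replicate libraries it was 0.18, -0.05 and 0.06. IL11, a cytokine of the IL-6 family, was at 49.8 FPKM in labelled KD and 21.3 in vector cells with BIX, and 7.04 and 6.57 in mock. TNFAIP3, an NF-kappaB inhibitor, was at 35.1 against 17.3 FPKM with BIX and 1.62 against 2.07 in mock, and CXCL8, a neutrophil chemokine, at 68.3 against 40.01 FPKM with BIX and 1.19 against 1.11 in mock. These 3 were highest in labelled KD with BIX and close between the cell lines in mock. CSF2, the cytokine GM-CSF, went the other way, at 10.7 against 22.5 FPKM with BIX and 3.10 against 4.62 in mock, as did CCL20, at 4.34 against 7.03 FPKM with BIX and 0.915 against 1.26 in mock. CXCL1 was listed at 0 in all 4 values. Of 40 interferon-stimulated genes 24 were used, with 0 higher, 0 lower and a median of -0.08. IFI44 had their lowest difference, at 4.87 against 7.52 FPKM with BIX and 12.4 against 16.1 in mock, and ISG15 their highest, at 16.95 against 12.6 FPKM with BIX and 18.1 against 16.4 in mock. Of 14 genes of cytosolic DNA sensing 12 were used, with 0 higher, 0 lower and a median of 0.14, and MB21D1, which encodes cGAS, was at 3.61 against 4.60 FPKM with BIX and 3.20 against 4.19 in mock.

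**Figure D3:**
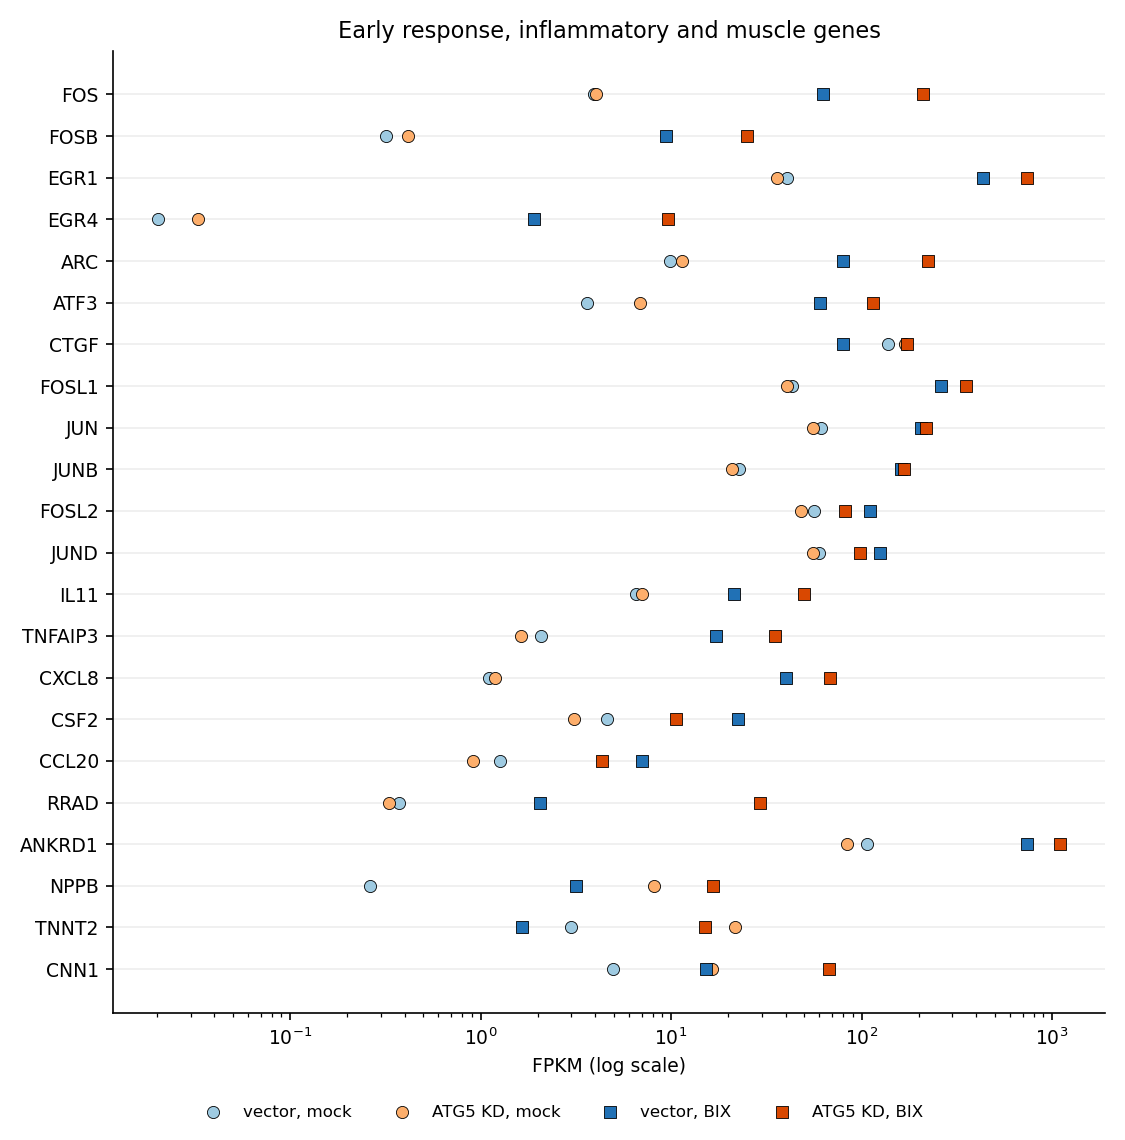
FPKM on a log axis for 22 early response, inflammatory and muscle genes, with 1 point for each of the 4 values. FOS, FOSB, EGR4, ARC and RRAD have nearly equal mock values and separated BIX values, while TNNT2 and CNN1 differ between the cell lines in both treatments.

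Genes better known from muscle and heart held the single highest difference. Of 31 listed, 16 were used, with 5 higher, 0 lower and a median of 0.58, against 0.32 in mock and -0.29, -0.31 and 0.00 between replicate libraries. The 16 take in a locus that joins symbols, counted for a gene whose own entry was not used. RRAD, a small GTPase that restrains calcium channels, was at 29.2 FPKM in labelled KD and 2.05 in vector cells with BIX, and 0.332 and 0.373 in mock. Its labelled KD value with BIX was 14.2 times the vector value, and the mock values were both under 1 FPKM. TNNT2, cardiac troponin T, was at 14.99 against 1.65 FPKM with BIX and 21.6 against 2.996 in mock, and TNNC1, a troponin C, at 34.3 against 13.3 FPKM with BIX and 41.2 against 12.7 in mock. CNN1, the actin-binding calponin of smooth muscle, was at 67.3 against 15.3 FPKM with BIX and 16.3 against 4.98 in mock, and NPPB, a natriuretic peptide gene, at 16.6 against 3.18 FPKM with BIX and 8.13 against 0.264 in mock. Unlike RRAD, these 4 were also at least 2-fold higher in labelled KD in mock. MYL2, a regulatory myosin light chain, was at 23.3 against 11.2 FPKM with BIX and 31.3 against 15.9 in mock, just under 2-fold on the log scale used. ANKRD1, a stretch-responsive gene, was at 1097 against 740.3 FPKM with BIX and 84.2 against 107 in mock. MYH6, MYH7 and CASQ2 were at or near 0 in all 4 values. Of 27 YAP and TEAD targets, a list that also holds CTGF and ANKRD1, 25 were used, with 1 higher (CTGF), 0 lower and a median of -0.03.

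Collagen genes were lower in labelled KD. Of 19 listed, 18 were used, with 0 higher, 3 lower, 7 at least 1.5-fold lower and a median of -0.55. In mock the median was -0.41 with 2 lower, and between replicate libraries it was -0.05, -0.24 and -0.11. COL5A2 was at 9.63 FPKM in labelled KD and 22.3 in vector cells with BIX, and 16.2 and 36.1 in mock. COL6A3 was at 26.9 against 55.04 FPKM with BIX and 30.8 against 60.1 in mock, and COL3A1, read together with a microRNA gene, at 8.57 against 18.8 FPKM with BIX and 19.96 against 41.4 in mock. COL1A1, the chain of the main bone collagen, was at 156 against 262 FPKM with BIX and 248 against 418 in mock. For COL5A2, COL6A3 and COL1A1 both labelled KD values lay below both vector values. For COL3A1 the labelled KD value in mock was slightly above the vector value with BIX. COL8A1, read together with MIR548G, and COL13A1 had the highest differences of the list, 0.43 and 0.39.

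Among 34 of 41 other matrix genes used, 0 were higher and 3 lower, with a median of -0.20 and 27 below 0. LAMA4, a laminin chain, was at 0.547 against 4.18 FPKM with BIX and 1.10 against 5.01 in mock. MMP2, a gelatinase, was at 81.9 against 174 FPKM with BIX and 107 against 237 in mock, and LUM, a proteoglycan of collagen fibrils, at 4.29 against 9.67 FPKM with BIX and 5.82 against 13.4 in mock. FN1, fibronectin, was at 131 against 254 FPKM with BIX and 203 against 332 in mock. All 4 genes were lower in labelled KD in both treatments. LAMA2, another laminin chain, was at 10.1 against 4.74 FPKM with BIX and 2.63 against 3.04 in mock, higher in labelled KD in the BIX pair and slightly lower in the mock pair.

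Targets of TGF-beta and BMP signalling had a median of -0.26 over 19 of 21 used, with 0 higher and 1 lower. The lower gene was SMAD6, an inhibitor of BMP receptors, at 3.93 FPKM in labelled KD and 16.1 in vector cells with BIX, and 10.1 and 18.2 in mock. The ID genes, direct BMP targets, were lower in labelled KD in both treatments: ID1 at 284 against 457 FPKM with BIX and 369.7 against 489 in mock, ID3 at 144 against 228 FPKM with BIX and 155 against 237 in mock and ID4 at 10.8 against 19.8 FPKM with BIX and 9.72 against 18.8 in mock. BMP2, a ligand, was at 32.2 against 18.9 FPKM with BIX and 4.16 against 5.10 in mock, and BMP4 at 14.9 against 19.3 FPKM with BIX and 56.4 against 67.6 in mock. The ligands differed in direction, with BMP2 higher and BMP4 lower in labelled KD with BIX. The clustered protocadherins, cell adhesion genes that lie in 3 arrays, had 5 used of 15 entries, with 0 higher, 0 lower and 5 of 5 below 0, and a median of -0.68.

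**Figure D4:**
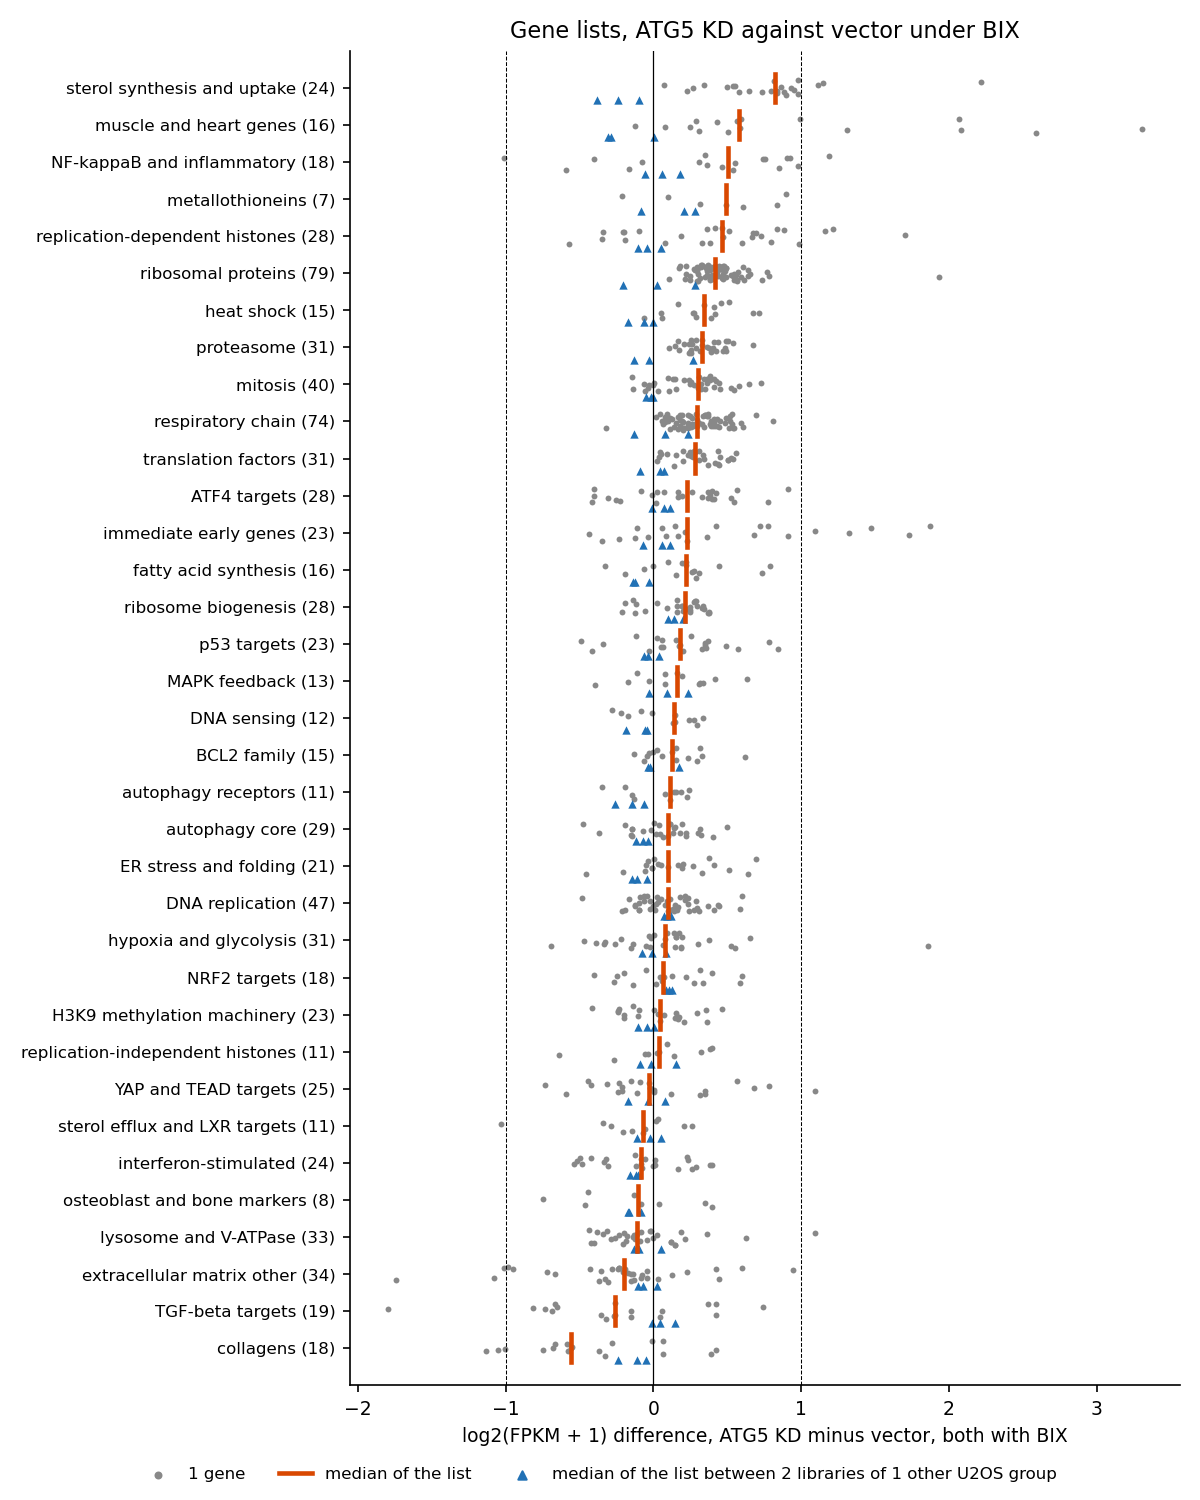
Differences between labelled KD and vector cells with BIX for the members of lists with at least 7 genes used (number in brackets). Grey points are genes, orange bars the list medians, and blue triangles the medians of the same list between 2 libraries of 1 other U2OS group. Sterol genes have the highest median, 0.83, and collagens the lowest, -0.55.

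Genes of growth and protein handling were shifted by small amounts in one direction. All 79 ribosomal protein genes lay above 0, with 1 higher, 0 lower and a median of 0.42. The medians were 0.28 for 31 translation factors, 0.29 for 74 respiratory chain genes, 0.33 for 31 proteasome genes and 0.34 for 15 of 19 heat shock genes used. In mock these 5 medians were 0.28, 0.20, 0.17, 0.23 and 0.26. Genes at 100 FPKM or more had a median of 0.26 whatever their role, and ribosomal protein genes differed by medians of -0.21, 0.02 and 0.28 between replicate libraries of the same group. After quantile normalization the 5 medians were 0.069, 0.075, 0.11, 0.16 and 0.14. The part of level and scaling in these shifts was not tested beyond those values.

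Cell cycle lists differed from each other. Over 40 genes of mitosis the median was 0.30 with 0 higher and 0 lower, and over 47 genes of DNA replication 0.10 with 0 higher and 0 lower. BIRC5, a subunit of the chromosomal passenger complex, was at 70.2 against 41.9 FPKM with BIX and 92.6 against 59.3 in mock. Replication-dependent histone genes, whose RNAs mostly end without a poly(A) tail and are poorly caught by the poly(A) selection used, had 28 of 59 entries used, with 3 higher, 0 lower and a median of 0.47. HIST1H2BJ was at 29.8 FPKM in labelled KD and 8.48 in vector cells with BIX, and 33.6 and 28.4 in mock. The vector value with BIX was the low one of the 4. HIST1H2BK was at 316 against 170.5 FPKM with BIX and 369.6 against 314 in mock, and was likewise lowest in vector cells with BIX. HIST1H3B (2.66 against 0.572 FPKM with BIX) and HIST1H4C (5.20 against 1.77 FPKM with BIX) were at low levels. The replication-independent histone genes, 11 of 11 used, had a median of 0.04, with 0 higher and 0 lower.

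Genes of the H3K9 methylation machinery, to which the targets of BIX belong, were close between the cell lines. Of 24 entries 23 were used, with 0 higher, 0 lower and a median of 0.04. The 23 take in a locus that joins symbols, counted for a gene whose own entry was not used. The own entry of EHMT2, a target of BIX, was at 0 FPKM in all 4 values and that of KDM4D under 1 FPKM, and neither was used. Which of these genes the joined locus stands for is not reported here. The 0 of the own entry alone does not show that EHMT2 RNA was absent. EHMT1, the other target, was at 8.67 against 10.09 FPKM with BIX. TRIM28, a corepressor that recruits SETDB1, had the highest difference, at 86.3 against 62.2 FPKM with BIX and 110.3 against 95.8 in mock, and ATF7IP, a partner of SETDB1, the lowest, at 10.04 against 13.7 FPKM with BIX and 13.7 against 14.8 in mock.

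Outside the lists, the genes with the largest differences at 5 FPKM or more were of mixed kinds. ARL14, a small GTPase of the ARF family, was at 51.6 FPKM in labelled KD and 7.01 in vector cells with BIX, and 2.02 and 1.13 in mock. ADAMTS6, a secreted metalloprotease, was at 105 against 22.5 FPKM with BIX and 8.59 against 6.48 in mock. TYRP1, an enzyme of melanin synthesis, was at 15.3 against 3.31 FPKM with BIX and 0.224 against 0.0978 in mock, and DCDC2C, of the doublecortin family, at 26.7 against 6.62 FPKM with BIX and 0.203 against 0.171 in mock. These 4 genes were lower in both mock values than in either BIX value, and were at least 4 times as high in labelled KD as in vector cells with BIX. TFCP2, a transcription factor, was at 16.1 against 3.32 FPKM with BIX and 3.47 against 1.48 in mock, ACRC, a gene of germ cells, at 7.85 against 1.25 FPKM with BIX and 0.855 against 0.766 in mock, and TNN, tenascin N, at 7.66 against 1.31 FPKM with BIX and 1.82 against 0.694 in mock. CFLAR-AS1 was at 39.7 against 7.74 FPKM with BIX and 1.25 against 0.610 in mock. It lies antisense to CFLAR, and the sources used here do not say whether strand was kept, so reads of the pair cannot be told apart.

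Among joined loci, 12 of 1214 were higher and 3 lower. The locus of IPW and SNORD116 genes was at 42.2 against 6.66 FPKM with BIX and 9.43 against 10.1 in mock, and that of ABCB1 and ABCB4, which encode a drug exporter and a phospholipid exporter, at 27.2 against 10.5 FPKM with BIX and 4.27 against 3.80 in mock. CHPF2, read together with MIR671, was at 4.31 against 28.1 FPKM with BIX and 4.21 against 4.58 in mock, where vector cells with BIX were the value that stood apart. SNAI2, a repressor of epithelial genes that was chosen after its values were seen, was at 31.4 against 72.4 FPKM with BIX and 12.4 against 15.97 in mock. SNAI1, the relative of SNAI2, was at 58.9 against 17.5 FPKM with BIX and 8.59 against 10.9 in mock, so the 2 relatives differed in opposite directions with BIX.

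The lowest differences were mostly shared with the mock pair. CXCL14, a chemokine, was at 12.2 FPKM in labelled KD and 79.7 in vector cells with BIX, and 33.04 and 190.1 in mock, and the vector value was 6.54 times the labelled KD value with BIX. BPIFB4, of a family of lipid-binding proteins, was at 6.28 against 42.01 FPKM with BIX and 6.53 against 37.3 in mock. FAM198B, which encodes a Golgi protein, was at 10.98 against 36.6 FPKM with BIX and 19.1 against 56.2 in mock, and DYNC1I1, a dynein subunit, at 1.52 against 6.73 FPKM with BIX and 3.24 against 11.9 in mock. In each of these 4 both labelled KD values lay well below both vector values. MMP13, a collagenase, was at 1.71 against 6.14 FPKM with BIX and 1.47 against 5.76 in mock, ENPP1, which makes pyrophosphate outside the cell, at 1.40 against 5.23 FPKM with BIX and 2.78 against 8.16 in mock, and PRR16 at 3.43 against 10.7 FPKM with BIX and 14.3 against 43.2 in mock. ZXDA, a zinc finger gene, was at 1.67 against 7.72 FPKM with BIX and 1.81 against 5.84 in mock, and LINC00662, a long non-coding RNA, had differences of -1.48 with BIX and -1.19 in mock. These 5 followed the same order in both treatments. CA11, a carbonic anhydrase relative, was at 0.517 against 5.43 FPKM with BIX and 1.35 against 1.12 in mock, PLEKHA7, of adherens junctions, at 3.65 against 12.5 FPKM with BIX and 4.59 against 6.68 in mock, and GPR1, a receptor, at 1.91 against 6.85 FPKM with BIX and 3.79 against 4.32 in mock. BDKRB1, a bradykinin receptor, was at 4.13 against 12.9 FPKM with BIX and 1.69 against 3.24 in mock, and NYAP2 at 0.945 against 5.42 FPKM with BIX and 0.527 against 1.55 in mock. These 5 were highest in vector cells with BIX.

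The mock pair shares no value with the BIX pair, and both use the same 2 cell lines. In mock, 63 of 12485 genes (0.505%) were higher and 56 (0.449%) lower in labelled KD. Among the 11858 genes used in both pairs, 124 were higher with BIX, 58 in mock and 35 in both, which is 28.2% of the first and 60.3% of the second. Lower genes numbered 55 with BIX, 49 in mock and 25 in both, or 45.5% and 51.0%. Of the 124 higher genes, 115 had the same sign in mock, as did 53 of the 55 lower ones. The share of same signs over all 11858 genes was not computed, so these counts have no baseline. Of the 171 higher genes, 47 were under 1 FPKM in both mock values, against 2 of the 57 lower genes and 397 of all 12255.

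The difference with BIX minus that in mock gives the difference of the BIX response between the cell lines. Over 9737 genes with at least 5 FPKM in 1 of the 4 values, 66 (0.678%) responded at least 2-fold higher in labelled KD and 8 (0.0822%) at least 2-fold lower. RRAD was among the highest, at 3.35, with a BIX response of 1.15 in vector and 4.50 in labelled KD cells on the log2 scale. ARL14 followed with 1.91 in vector and 4.12 in labelled KD. SNAI1 had 0.64 and 2.64, and ACRC 0.35 and 2.25. These genes responded upward in both cell lines, by more in labelled KD. SYTL2, a vesicle trafficking gene, was at 12.1 against 5.74 FPKM with BIX and 8.55 against 25.4 in mock. There vector cells in mock had the highest value. On the other side, PLEKHA7 had 0.82 in vector and -0.26 in labelled KD, and SMAD6 -0.17 and -1.18. ANO2 (15.8 against 12.5 FPKM with BIX and 10.5 against 3.20 in mock) and ZNF283 (20.8 against 20.7 FPKM with BIX and 17.6 against 8.25 in mock) were 2-fold higher in labelled KD in mock only. The 2 responses and the difference between the cell lines share values, so they are given side by side and not as separate evidence.

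**Figure D5:**
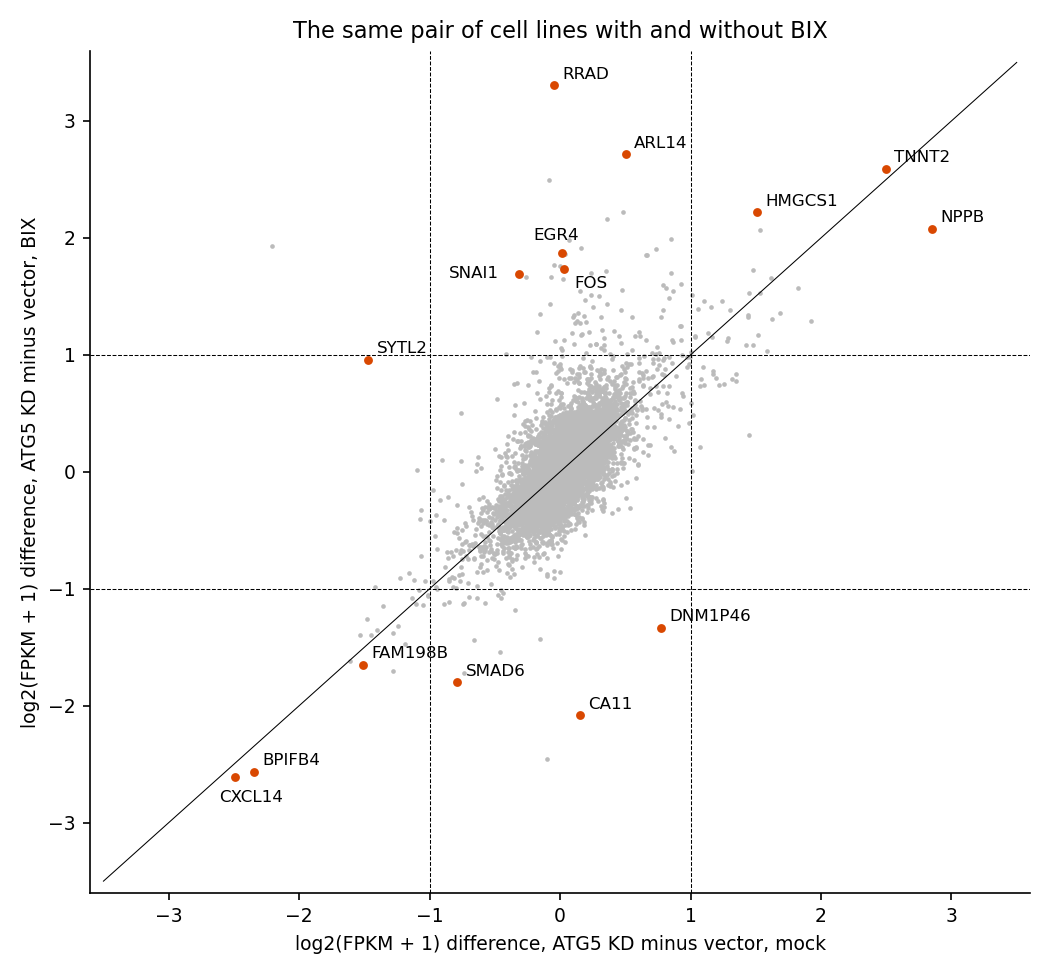
Difference of labelled KD from vector cells in mock on the x axis and with BIX on the y axis, both in log2(FPKM + 1), for 9051 genes at 5 FPKM or more in 1 of the 2 BIX values. The solid line marks equal differences and dashed lines mark 2-fold. TNNT2, CXCL14 and BPIFB4 lie near the line, RRAD, ARL14, FOS and EGR4 lie above it near 0 in mock, and CA11 lies below it.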

How the data were processed

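RNA of U2OS cells was poly(A)-selected, made into TruSeq libraries and sequenced as paired ends, per the labels' protocols. Per the submitters' processing notes, reads were handled with FastQC, cutadapt, TopHat2 and Cufflinks, with hg19 named as the human build; the sources used here do not give versions, options, annotation or strandedness. The authors deposited FPKM values per gene, 1 for each group, each said to stand for 2 replicates. How these were combined is not stated there. The authors' FPKM columns sum to between 445281 and 564049 over 25848 rows. Read counts are unknown, so no counting interval is given.

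For a symbol listed more than once the entry with the highest mean was kept. Loci that join several symbols were kept as 1 gene. Where the own entry of a listed gene fell under the filter, a used locus that joins its symbol was counted in its place. Differences were computed on log2(FPKM + 1) with Python 3.11.15 and pandas 2.3.3, and the scripts were tested on simulated data. With 1 value in each group no test was possible. The 40 gene lists and the members were chosen with earlier results of these data known. Named genes are ATG5 and the autophagy core; the 15 highest and 15 lowest differences at 5 FPKM or more among single symbols; up to 6 members of each list with the largest differences, with other members added for context after their values were seen; the 8 largest and 8 smallest differences of the BIX response; and joined loci 2-fold apart. Some genes that these rules name are not reported here. Alternatives covered the pseudocount, the filter, the fold, scaling, joined loci and short RNAs. Mouse samples and chromatin samples were not analysed here.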

Additional observations from a re-analysis of the deposited data

Results flagged for a closer look

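For 3 of the named genes the labelled KD and vector cells differed in opposite directions in the BIX and mock pairs, or responded to BIX in opposite directions, each time by at least 1.5-fold. Each rests on 1 value in each group, and none of these differences was tested. SYTL2, a vesicle trafficking gene, differed by 0.96 with BIX and by -1.47 in mock, where vector cells had the highest of the 4 values. DNM1P46, a pseudogene of the dynamin family, differed by -1.33 with BIX and by 0.78 in mock (2.92 against 8.88 FPKM with BIX and 13.1 against 7.25 in mock). CA11 responded to BIX by 1.60 on the log2 scale in vector cells and by -0.63 in labelled KD cells, and it was under 6 FPKM in all 4 values.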

How the results depend on the processing

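The number of higher and lower genes depended on the pseudocount and the fold. With a pseudocount of 0.1 they were 344 and 156, with 0.5 they were 258 and 92, at 1.5-fold 613 and 343, and at 3-fold 35 and 11, against 171 and 57. Centring on the median (a shift of 0.03) gave 160 and 64, quantile normalization 165 and 62, leaving out joined loci 159 and 54, a minimum of 5 FPKM 121 and 40, and keeping short RNA genes 202 and 75. In mock a pseudocount of 0.1 gave 135 higher and 131 lower genes. For the BIX response it gave 15 lower genes, and a minimum of 1 FPKM gave 106 higher and 15 lower. Of 261 alternatives for list medians, 244 stayed within 0.164, the SD of 1 gene between WT replicate libraries. That limit is for single genes and is larger than several list medians, so a small median could change sign within it. With quantile normalization, among others, the BCL2 family went from 0.13 to -0.037, NRF2 targets from 0.064 to -0.034 and endoplasmic reticulum stress genes from 0.097 to -0.024. Quantile normalization moved the medians of heat shock genes to 0.14, autophagy receptors to -0.077, metallothioneins to 0.24, hypoxia and glycolysis to -0.17, ribosomal proteins to 0.069, translation factors to 0.075, the respiratory chain to 0.11, the proteasome to 0.16 and replication-independent histones to -0.20. A pseudocount of 0.1 moved protocadherins to -0.91 and replication-dependent histones to 0.67. With no filter, protocadherins were at -0.19, muscle and heart genes at 0.19, replication-dependent histones at 0.30 and neuronal markers at 0.063. At 5 FPKM replication-dependent histones were at 0.74, and without joined loci muscle and heart genes were at 0.80. For 287 named genes, 128 of 861 alternatives moved and 0 reversed. A change of pseudocount cannot change the sign of a difference, so for such alternatives the 0 was fixed in advance. Apart from changes built into the fold, the filter and the pseudocount, the cause was not tested.

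No paired analysis was possible because each group of the comparison has 1 value. The replicate libraries are of other groups, so there was none to leave out here. Depth is unknown, and differences of genes near 1 FPKM are the least certain.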

Other observations

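Stress programmes outside the account above gave few 2-fold differences with BIX. Metallothioneins and other metal response genes, 7 of 12 used, had 0 higher, 0 lower and a median of 0.49. MT2A was at 11774 against 9480.3 FPKM with BIX and 945 against 764 in mock, so treatment separated the values far more than the cell line did, and SLC30A1, a zinc exporter, was at 75.2 against 41.6 FPKM with BIX and 9.20 against 7.20 in mock. Targets of ATF4, the factor of the integrated stress response, had 0 of 28 higher or lower and a median of 0.23, with PPP1R15A at 459 against 268 FPKM with BIX and 16.5 against 14.1 in mock. Genes of endoplasmic reticulum stress and folding had 0 of 21 higher or lower and a median of 0.10, with the chaperone HSPA5 at 162 against 114 FPKM with BIX and 228 against 189.6 in mock. Among 23 p53 targets 0 were higher or lower, the median was 0.18, and GADD45A was at 1005 against 561 FPKM with BIX and 62.6 against 50.3 in mock. Over 15 genes of the BCL2 family the median was 0.13 with 0 higher and 0 lower, and over 18 NRF2 targets 0.06 with 0 higher and 0 lower. Among 31 hypoxia and glycolysis genes 1 was higher, ADM, which encodes a vasodilator peptide, at 21.5 against 5.22 FPKM with BIX and 5.94 against 3.40 in mock. The 28 ribosome biogenesis genes had a median of 0.21, with 0 higher and 0 lower.

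Of 10 neuronal markers 5 were used, with a median of 0.72. The higher gene was SYP, a synaptic vesicle protein, at 19.4 against 6.58 FPKM with BIX and 2.22 against 1.52 in mock, while NEFL was at 18.9 against 20.9 FPKM with BIX and 30.6 against 33.4 in mock and ELAVL4 and MAP2 were under 1 FPKM in all 4 values. Epithelial markers, 5 used of 9 entries, had a median of 0.04, and osteoblast markers, 8 of 13 used, one of -0.11. BCYRN1, a short repeat-derived RNA gene that the name filter missed, was counted among the higher genes, at 133 against 44.2 FPKM with BIX and 211 against 59.00 in mock.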
